A study of Mus musculus with 6 samples.

Results

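Titin and the genes of the cardiac Z-disc were followed in HL-1 cells after knockdown of the long noncoding RNA Malat1. The set held 10 of the 21269 genes in the expression table and was chosen by name, with earlier results of these data known: Ttn, Actn2, Ldb3, Csrp3, Tcap, Myoz2, Nebl, Flnc, Synpo2l and Des. HL-1 is a single mouse line of atrial cardiomyocyte origin, grown in medium with serum and norepinephrine. Cells were seeded 24 h before transfection with 50 nM of an LNA gapmer, an antisense oligonucleotide that directs cleavage of its target RNA, and total RNA was sequenced 48 h after transfection. The control gapmer (LNA Control) and the gapmer against Malat1 (LNA Malat1) were each used for 3 libraries. All 6 libraries thus came from transfected cells of the same line, and p-values measure only the spread between these libraries, since nothing in the labels says that they came from separate cultures.

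The Z-disc is the boundary between neighbouring sarcomeres, where actin filaments of opposite polarity are cross-linked. Titin is anchored there by its N-terminus and runs to the middle of the sarcomere, acting as a molecular spring and as a scaffold for thick filament assembly. Alpha-actinin holds actin and titin together, and a second layer of proteins around it binds signalling molecules and links the Z-disc to desmin filaments and the cell membrane.

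Values are normalized counts, which are the read counts per gene after each library had been scaled by 1 factor and the values rounded. Their totals were between 4758777 and 4921406 per library, and the reads behind them between 4512253 and 5592464. Malat1 itself had 5051, 5197 and 4369 normalized counts with LNA Control against 2833, 2792 and 2732 with LNA Malat1, so that 57.2% remained. LNA Malat1 replicates 1 and 3, the closest pair, differed by no more than sampling noise over 14522 genes (chi-square per gene of 0.949, and 1.01 for replicates 1 and 2). In genes of at least 1600 reads the values were 1.11 and 1.66, which exceed that noise. The LNA Control pairs were further apart, with 1.77 to 4.18 per gene. Replicates 1 and 3 of LNA Malat1 nevertheless entered every mean ± SD as 1 sample, which is then over n = 3 for LNA Control and n = 2 for LNA Malat1. The limma tests below took all 6 libraries as separate samples unless stated otherwise. The cardiomyocyte label was checked against 8 of 9 listed marker genes (Nppa was not analysed here), whose summed level was 4311 to 4645 in LNA Control and 4156 to 4245 in LNA Malat1. Tnnt2, Tnni3, Actc1, Ryr2 and Pln had at least 164 normalized counts in every library. The light chain genes Myl7 and Myl4 had only 18 to 32 and 30 to 49, and Myh6, the main adult heavy chain, had 0 to 7. Tnnt2 was higher and Pln lower in LNA Malat1, with log2 fold changes of 0.15 and -0.25 (adjusted p of 0.034 and 0.0037, limma).

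Of the 10 genes, 9 had a mean of at least 5 normalized counts and were tested. Ttn, Actn2, Ldb3, Csrp3 and Synpo2l were upregulated in LNA Malat1, none was downregulated by 1.5-fold, and Des was lower by less than that. A gene was called when limma gave an adjusted p of at most 0.05 and the fold change was at least 1.5. This made 5 of 9 called higher and 0 of 9 called lower, where 8.0% of all 15650 tested genes were called higher and 2.92% lower. Past the adjusted p alone, 5 of the 9 were higher and 1 was lower, against 14.3% and 14.0% of all tested genes. In 5 genes every LNA Malat1 library was above every LNA Control library and in 2 genes every one was below, against 20.5% and 20.8% of all tested genes. The median log2 fold change of the 9 genes was 0.61, and that of all tested genes was 0.02. Since the set was chosen with earlier results known, these shares and medians only describe it. With LNA Malat1 replicates 1 and 3 as 1 sample in limma, 4 of the 9 were called higher, against 831 of all 15650 genes. The limma adjusted p was then 0.023 for Ttn, 0.014 for Actn2, 0.012 for Ldb3, 0.0029 for Synpo2l, 0.071 for Csrp3 and 0.027 for Des. In these bulk samples, more cells of a kind and more RNA per cell cannot be told apart.

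**Figure D1:**
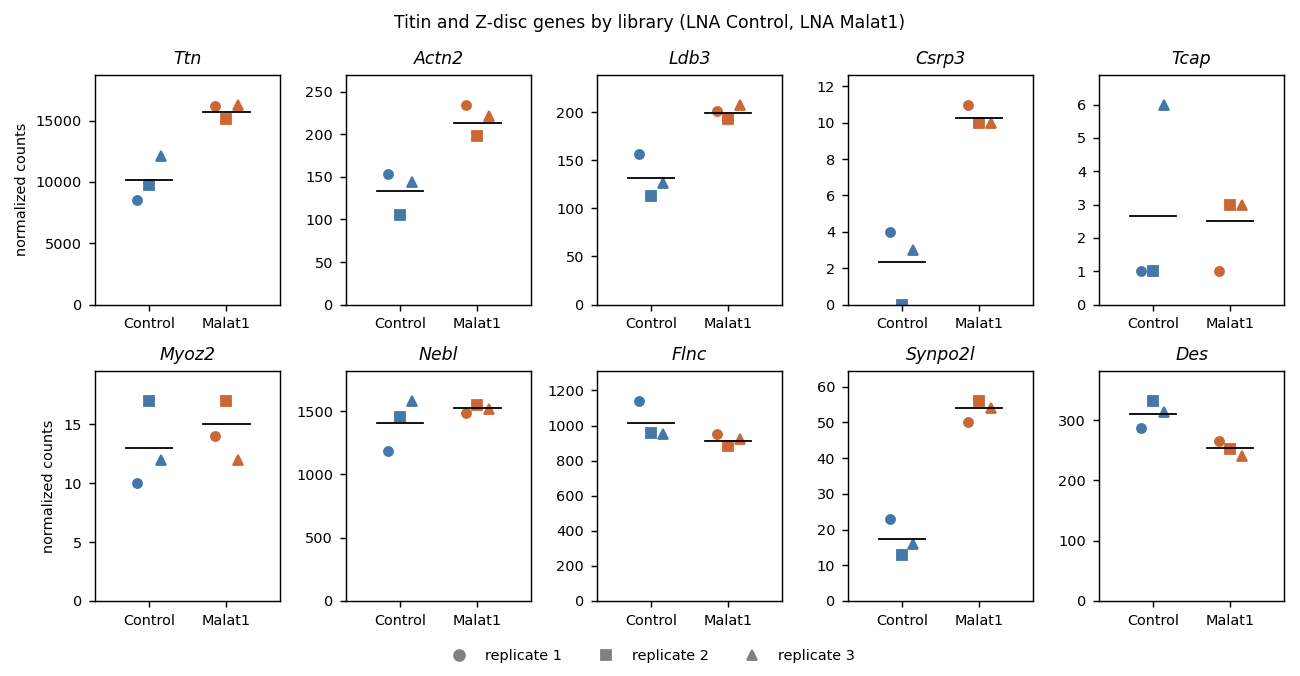
Normalized counts of the 10 genes in each of the 6 libraries (y axes from 0, a scale for each gene). Colour and position give the group, symbols give the replicate number and black lines give the group mean. The LNA Malat1 libraries lie above all LNA Control libraries for Ttn, Actn2, Ldb3, Csrp3 and Synpo2l and below them for Flnc and Des.

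**Figure D2:**
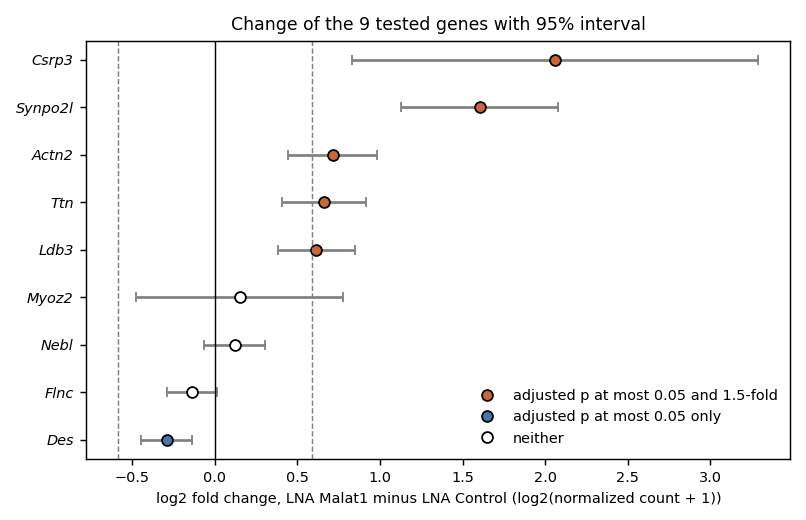
Log2 fold change of LNA Malat1 over LNA Control on the log2(normalized count + 1) scale for the 9 tested genes, with 95% intervals from limma and dashed lines at a 1.5-fold change in either direction. Csrp3 has the widest interval, from 0.83 to 3.29, and the intervals of Flnc, Nebl and Myoz2 include 0.

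The share of all genes that was called differed with abundance, so each gene is set beside genes of a like level. Ttn was 1 of 11 genes called higher among 3205 genes with a mean of at least 500 normalized counts (0.343%). Actn2 and Ldb3 lay in the range from 100 to below 200, in which 4.29% of the genes were called higher. Synpo2l lay in the range from 20 to below 50, in which 19.6% were called higher, and Csrp3 in that from 5 to below 10, in which 16.1% were. The median log2 fold change of all genes was 0.43 in the lowest of these ranges and -0.05 in the highest.

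Titin is encoded by Ttn (ENSMUSG00000051747), which lies on the minus strand at chr2:76703980-76982547 of mm10, with 117 kb of exonic sequence and up to 347 exons in 1 transcript. Ttn had 8524, 9786 and 12110 normalized counts with LNA Control against 16176, 15112 and 16320 with LNA Malat1. The groups did not overlap, and the LNA Control libraries were further apart than the LNA Malat1 libraries. The mean rose from 10140 ± 1819 to 15680 ± 803. With the 6 libraries taken separately, the log2 fold change was 0.66 (standard error 0.12, 95% interval 0.40 to 0.92, adjusted p = 0.0013, limma). Without LNA Control replicate 1, the lowest library, the log2 fold change was 0.54, which is under 1.5-fold, with a limma adjusted p of 0.00011.

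Ttn had the highest normalized count of all genes in each of the 6 libraries, a rank that does not correct for its 117 kb of exonic sequence. Per kb of exonic sequence, Ttn had 86.8 normalized counts in LNA Control, where Malat1 had 698 and Flna 523. Ttn took 0.174%, 0.199% and 0.251% of all normalized counts with LNA Control against 0.340%, 0.317% and 0.343% with LNA Malat1. Within the set it accounted for 74.2% to 79.4% of the counts in LNA Control and for 82.7% to 83.6% in LNA Malat1. The other 9 genes together summed to 2957, 2993 and 3151 in LNA Control and to 3214, 3160 and 3193 in LNA Malat1. An antisense gene, Gm13938, shares 453 exonic bases with Ttn, or 0.388% of its exonic length.

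Among the LNA Control libraries, replicate 3 had 1.42 times the Ttn level of replicate 1. Over the 3205 genes whose mean reached 500 the same ratio had a median of 0.955 and ran from 0.826 to 1.26 between the 5th and the 95th percentile, and 76 of them reached the ratio of Ttn. Neb, Nexn and Nebl, which also encode sarcomere or Z-disc proteins, had ratios of 1.54, 1.38 and 1.34. Those of Actn2, Flnc and Ldb3 were 0.941, 0.834 and 0.803. Exonic length was looked at beside these values: in the 307 genes with at least 15 kb of exonic sequence and a mean of at least 100, the ratio had a median of 1.06, the median log2 fold change was -0.00 and 2.28% were called higher. In genes of 5 to below 15 kb the ratio had a median of 0.979 and 1.93% were called higher, and below 5 kb these were 0.967 and 1.46%. The share past the adjusted p and higher was 8.32%, 13.4% and 16.9% from the shortest to the longest of the 3 classes. The part of these differences between LNA Control libraries in the change of Ttn was not tested, and the log2 fold change was 0.80 without LNA Control replicate 3.

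By the distance between patterns over the 6 libraries, each gene taken relative to its own LNA Control mean on the log2 scale, the 5 genes most like Ttn among 8910 compared were Ccdc18 (0.160), Pwwp3b (0.166), Myom1 (0.175), Brca2 (0.176) and Zmat1 (0.181). Myom1 encodes myomesin, which cross-links titin and myosin at the M-band. It had 119, 136 and 164 normalized counts with LNA Control against 205, 193 and 223 with LNA Malat1. Among the genes nearest to Actn2 were Adgrl1 (0.301), Phykpl (0.302), Epha2 (0.305) and Ldb3 (0.311), so that the pattern nearest to Actn2 within the set was that of Ldb3. These genes are a description of likeness over 6 libraries in 2 groups.

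Alpha-actinin-2, the actin cross-linker of the cardiac Z-disc, is encoded by Actn2 (ENSMUSG00000052374) at chr13:12269426-12340760 on the minus strand. Actn2 had 153, 105 and 144 normalized counts with LNA Control against 235, 198 and 221 with LNA Malat1. The groups did not overlap, and replicate 2 was the lowest library of each group. The mean rose from 134.0 ± 25.5 to 213 ± 21.2. With the 6 libraries taken separately, the log2 fold change was 0.71 (standard error 0.12, 95% interval 0.44 to 0.98, adjusted p = 0.0011, limma).

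Ldb3 (ENSMUSG00000021798), at chr14:34526603-34588682 on the minus strand, encodes Cypher/ZASP, a PDZ and LIM domain protein that binds alpha-actinin. It had 157, 113 and 126 normalized counts with LNA Control against 201, 193 and 208 with LNA Malat1. Again no library of one group reached the other, and the mean rose from 132 ± 22.6 to 199 ± 8.1. With the 6 libraries taken separately, the log2 fold change was 0.61 (standard error 0.11, 95% interval 0.38 to 0.85, adjusted p = 0.0011, limma). For both Actn2 and Ldb3 the call rested on LNA Control replicate 2, without which the log2 fold changes were 0.55 and 0.51, under 1.5-fold, at limma adjusted p of 0.0031 and 0.0080.

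Synpo2l (ENSMUSG00000039376), which encodes an actin-associated protein of the Z-disc related to synaptopodin, lies at chr14:20658946-20668354 on the minus strand. It had 23, 13 and 16 normalized counts with LNA Control against 50, 56 and 54 with LNA Malat1. The lowest LNA Malat1 library lay 27 normalized counts above the highest LNA Control library. The mean rose from 17.3 ± 5.1 to 54.0 ± 2.8. With the 6 libraries taken separately, the log2 fold change was 1.60 (standard error 0.22, 95% interval 1.13 to 2.08, adjusted p = 0.00017, limma). Of the 9 genes, only Synpo2l also passed a limma test against a 1.5-fold change. Of all 15650 genes, 192 passed that test and were higher, and 99 were lower. Synpo2l was called in each of 15 other settings, with log2 fold changes from 1.36 to 1.81.

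Csrp3 (ENSMUSG00000030470), at chr7:48830398-48848033 on the minus strand, encodes muscle LIM protein, a Z-disc protein linked to the sensing of stretch. It had 4, 0 and 3 normalized counts with LNA Control against 11, 10 and 10 with LNA Malat1. The groups did not overlap, at a depth of a few reads per library. The log2 fold change was 2.06 (standard error 0.57, 95% interval 0.83 to 3.29, adjusted p = 0.017, limma), and it ran from 1.11 with a pseudocount of 5 to 3.27 with one of 0.1. The call was lost with a pseudocount of 0.1 (adjusted p = 0.054, limma), with LNA Malat1 replicates 1 and 3 as 1 sample (adjusted p = 0.071, limma) and without any 1 of the LNA Malat1 libraries (limma adjusted p from 0.063 to 0.078).

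Flnc, Nebl and Myoz2 did not pass the test. Flnc (ENSMUSG00000068699), at chr6:29433256-29461883 on the plus strand, encodes the muscle filamin, which cross-links actin and connects the Z-disc to the membrane. It had 1140, 956 and 951 normalized counts with LNA Control against 949, 885 and 925 with LNA Malat1. The groups did not overlap, but by only 2 normalized counts, and the log2 fold change was -0.14 (standard error 0.07, 95% interval -0.29 to 0.01, adjusted p = 0.16, limma).

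Nebl (ENSMUSG00000053702), at chr2:17343909-17731464 on the minus strand, encodes nebulette, an actin-binding protein of the cardiac Z-disc. It had 1182, 1456 and 1580 normalized counts with LNA Control against 1487, 1545 and 1519 with LNA Malat1. The LNA Malat1 libraries lay within the range of the LNA Control libraries, and the log2 fold change was 0.12 (standard error 0.09, 95% interval -0.07 to 0.31, adjusted p = 0.32, limma). It was 0.21 without LNA Control replicate 3 (adjusted p = 0.042, limma) and 0.00 without LNA Control replicate 1 (adjusted p = 1.00, limma).

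Myoz2 (ENSMUSG00000028116), at chr3:123006206-123035015 on the minus strand, encodes calsarcin-1, which tethers the phosphatase calcineurin to alpha-actinin. It had 10, 17 and 12 normalized counts with LNA Control against 14, 17 and 12 with LNA Malat1. The groups overlapped, and the log2 fold change was 0.15 (standard error 0.29, 95% interval -0.48 to 0.78, adjusted p = 0.74, limma), an interval that holds a 1.5-fold change. Tcap (ENSMUSG00000007877), at chr11:98383811-98384953 on the plus strand, encodes telethonin, which caps the N-terminus of titin. It had 1, 1 and 6 normalized counts with LNA Control against 1, 3 and 3 with LNA Malat1 and was too low to be tested.

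Des (ENSMUSG00000026208), at chr1:75360329-75368579 on the plus strand, encodes desmin, the muscle intermediate filament that surrounds the Z-discs and joins them to each other. Des had 287, 332 and 313 normalized counts with LNA Control against 266, 253 and 241 with LNA Malat1. The groups did not overlap, and the direction was opposite to that of Ttn. Des fell to 81.5% of LNA Control, a log2 fold change of -0.29 (standard error 0.07, 95% interval -0.44 to -0.14, adjusted p = 0.0082, limma), and it was past the adjusted p in each of 16 other settings. An antisense gene, Gm15179, shares 220 exonic bases with Des, or 5.86% of its exonic length, and reads from the 2 genes can be told apart only if strand was used in counting, which was not given in the sources used here.

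To compare levels between the genes, normalized counts were divided by the exonic length of each gene over all its annotated transcripts. In LNA Control, Flnc had the highest level, with 108 normalized counts per kb (101 to 121 over the 3 libraries), before Nebl with 92.3 (77.6 to 104), Ttn with 86.8 (73.0 to 104) and Des with 82.8 (76.5 to 88.4). The ranges of neighbours in this order overlapped, while those of Flnc and Des did not. Actn2 with 35.3 (27.7 to 40.3) and Ldb3 with 21.6 (18.5 to 25.7) were lower and separated from each other, and Myoz2, Synpo2l, Tcap and Csrp3 had 3.80, 3.74, 2.81 and 0.874 normalized counts per kb. In LNA Malat1, Ttn had the highest level per kb, with 134 (129 to 140), and its range no longer met those of Nebl, with 100.0 (97.6 to 101), and Flnc, with 96.9 (94.1 to 101). Actn2 reached 56.1 (52.2 to 61.9), still below Des with 67.5 (64.2 to 70.9). Synpo2l, with 11.7 (10.8 to 12.1), was then above Myoz2, with 4.38 (3.51 to 4.97). Csrp3, with 3.84 (3.74 to 4.12), was within the range of Myoz2 and above the whole range of Tcap, with 2.64 (1.05 to 3.16).

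**Figure D3:**
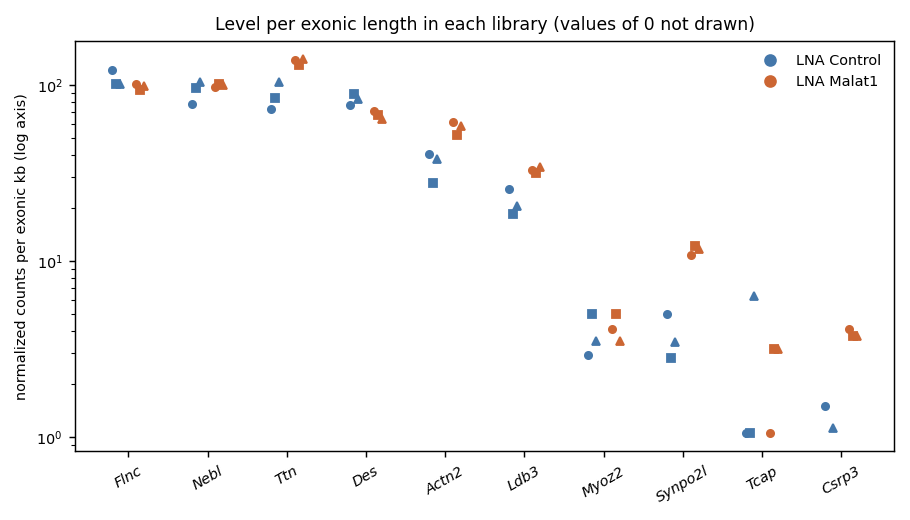
Normalized counts per kb of exonic sequence (log axis) in each library for the 10 genes, in the order of their LNA Control mean. Blue symbols are LNA Control and orange symbols LNA Malat1, with the same symbol for the same replicate number, and the value of 0 for Csrp3 in LNA Control replicate 2 is not drawn. Flnc, Nebl, Ttn and Des lie between 64.2 and 140 per kb in all libraries, and Myoz2, Tcap and Csrp3 lie below 7 per kb.

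RefSeq promoters of build GRCm38.p6 were found for 9 of the 10 genes, and the 250 bases before each start were searched on both strands for short motifs of muscle factors. The 9 genes had 16 promoters, several of which overlap or belong to 1 gene. A MEF2 site, bound by the MEF2 factors of muscle, was found in 4 of the 16, those of Ttn, Myoz2 and both starts of Synpo2l, where 2.92% of 32851 promoters in the table hold one. A CArG box, bound by serum response factor, was found in 3, those of both starts of Ldb3 and 1 start of Nebl, where 1.47% of all promoters hold one. The promoters of both Ldb3 starts overlap and hold the same box, 35 and 109 bases before the start, so 1 site is counted in both. Neither a MEF2 site nor a CArG box was found for Actn2, Csrp3, Des or Flnc. The E-box CANNTG was in 10 of the 16 promoters (62.5%) and is in 66.2% of all, and the GATA motif GATAA was in 4 (25.0%) and is in 22.6% of all. The MCAT motif CATTCC was in 2, at 1 start each of Flnc and Nebl, and is in 12.6% of all, and TATAAA was in 0 of the 16 and is in 12.4% of all. No MEF2 site or CArG box overlapped another of the motifs searched. The 4 sequences below belong to 3 genes that were upregulated and to Myoz2, which was not, and each has its MEF2 site or, for Ldb3, its CArG box in capitals. They run 5′ to 3′ on the minus strand and end at the base before the start, from chr2:76982548-76982797 (Ttn), chr14:20668355-20668604 (Synpo2l), chr3:123034988-123035237 (Myoz2) and chr14:34588682-34588931 (Ldb3).
Ttn: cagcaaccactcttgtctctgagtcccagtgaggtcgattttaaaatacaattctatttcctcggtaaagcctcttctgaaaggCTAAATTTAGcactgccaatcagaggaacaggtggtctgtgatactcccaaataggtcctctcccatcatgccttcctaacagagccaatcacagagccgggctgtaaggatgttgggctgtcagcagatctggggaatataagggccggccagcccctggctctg
Synpo2l: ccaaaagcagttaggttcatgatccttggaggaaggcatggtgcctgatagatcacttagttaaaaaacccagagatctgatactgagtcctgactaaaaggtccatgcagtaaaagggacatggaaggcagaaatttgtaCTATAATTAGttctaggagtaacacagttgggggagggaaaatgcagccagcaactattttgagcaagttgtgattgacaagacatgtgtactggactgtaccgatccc
Myoz2: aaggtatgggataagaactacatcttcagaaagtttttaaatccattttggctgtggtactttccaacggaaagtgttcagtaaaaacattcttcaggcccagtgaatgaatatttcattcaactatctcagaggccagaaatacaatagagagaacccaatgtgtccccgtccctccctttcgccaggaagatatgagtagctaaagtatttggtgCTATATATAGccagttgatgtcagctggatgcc
Ldb3: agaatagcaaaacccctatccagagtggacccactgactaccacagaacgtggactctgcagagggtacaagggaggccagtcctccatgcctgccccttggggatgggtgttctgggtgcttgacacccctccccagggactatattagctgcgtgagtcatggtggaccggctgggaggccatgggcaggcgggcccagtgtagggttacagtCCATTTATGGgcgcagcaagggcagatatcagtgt

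The first base of the match was 166 bases before the start in Ttn, 109 in Synpo2l, 33 in Myoz2 and 35 in Ldb3. Synpo2l has a further start whose promoter holds a MEF2 site as well, 144 bases before it. Of the genes with a MEF2 site, Ttn and Synpo2l were called, with log2 fold changes of 0.66 and 1.60, and Myoz2 was not, with 0.15, and Actn2 and Csrp3 were upregulated with neither motif in these 250 bases.

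Each gene of the set but Ttn, Ldb3 and Tcap was set beside its relatives of the same protein family, 16 genes in all, of which 14 were tested. Of these, Synpo and Synm were called higher and 0 of 14 were called lower, where 8.0% of all tested genes were called higher and 2.92% lower. Past the adjusted p alone, 4 of the relatives were higher and 1 was lower, against 14.3% and 14.0% of all tested genes. The median log2 fold change of the relatives was -0.02. Reads that fit more than 1 gene had been left out by the authors, and whether a member and a relative differed in their change was not tested.

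Among the alpha-actinins, the non-muscle gene Actn1 had 1068, 988 and 907 normalized counts with LNA Control against 1153, 1085 and 1117 with LNA Malat1. The groups did not overlap, and the log2 fold change was 0.18 (adjusted p = 0.046, limma), beside 0.71 for Actn2. Actn4, the other non-muscle form, and Actn3, that of fast skeletal fibres, had log2 fold changes of 0.00 and -0.07 (adjusted p of 0.98 and 0.67, limma). In the nebulin family, Neb, which encodes the giant thin filament protein nebulin, had 732, 870 and 1128 normalized counts with LNA Control against 1289, 1335 and 1208 with LNA Malat1. No LNA Malat1 library of Neb reached down to LNA Control, and its log2 fold change was 0.51 (standard error 0.12, adjusted p = 0.0057, limma), under 1.5-fold, beside 0.12 for Nebl. Nrap and Lasp1, actin-binding proteins with nebulin repeats, had -0.03 and 0.11 (adjusted p of 0.89 and 0.24, limma).

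Synpo, which encodes synaptopodin, moved in the direction of Synpo2l. It had 174, 160 and 168 normalized counts with LNA Control against 264, 289 and 276 with LNA Malat1, and the log2 fold change was 0.72 (standard error 0.07, adjusted p = 1.1e-05, limma). Synpo2, or myopodin, another Z-disc protein of this family, had a log2 fold change of -0.00 (adjusted p = 0.98, limma). Of the intermediate filaments, Synm, which encodes synemin, a partner of desmin, had 340, 349 and 351 normalized counts with LNA Control against 583, 533 and 500 with LNA Malat1. This was a log2 fold change of 0.63 (standard error 0.06, adjusted p = 1.4e-05, limma), opposite in direction to Des, and 0.57, under 1.5-fold, without LNA Malat1 replicate 1. Vim, or vimentin, had -0.08 (adjusted p = 0.41, limma).

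Flna, which encodes the widely expressed filamin A, had a log2 fold change of -0.13 (adjusted p = 0.23, limma) beside -0.14 for Flnc. The cysteine-rich LIM proteins Csrp1 and Csrp2 had -0.13 and -0.20 (adjusted p of 0.072 and 0.099, limma), where Csrp3 had 2.06. The relatives of Myoz2 were near the limit of detection, with 0, 0 and 3 normalized counts of Myoz1 with LNA Control against 1, 4 and 6 with LNA Malat1, and with 0 to 2 of Myoz3 in all libraries.

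**Figure D4:**
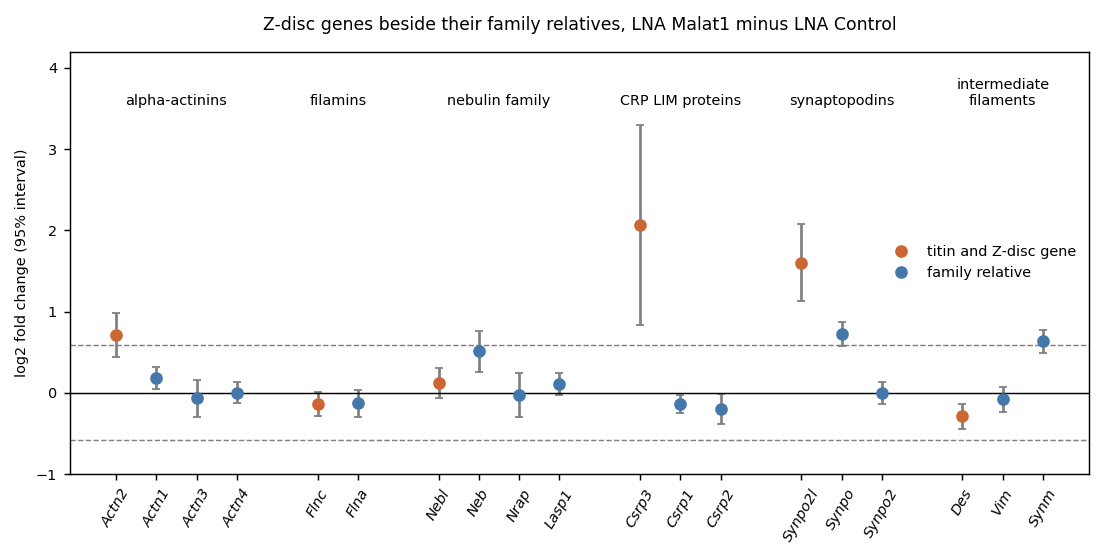
Log2 fold changes of LNA Malat1 over LNA Control with 95% intervals from limma, by protein family, for the genes of the set (orange) and tested relatives (blue), with dashed lines at a 1.5-fold change. Actn2, Csrp3 and Synpo2l lie above each of their relatives, while Nebl and Des lie below Neb and Synm.

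A further 25 genes of the Z-disc were listed, of which 23 had values and 20 were tested, and Myot and Mypn were not analysed here. None of the 20 was called by limma in either direction, where 8.0% of all tested genes were called higher and 2.92% lower. An unadjusted p under 0.05 was found for 9, and the share of all tested genes with one is not given here. With voom weights on the recovered reads 0 were called, where 1257 of all 15650 genes were called higher and 465 lower. The median log2 fold change was 0.09. The most abundant was Plec, which encodes the cytolinker plectin, with a log2 fold change of 0.19 (adjusted p = 0.066, limma). Past the adjusted p alone, 2 were higher and 2 were lower, against 14.3% and 14.0% of all tested genes. Those of the list are named after their values were seen. Pdlim7, a PDZ and LIM domain protein, and Xirp1, an actin-binding protein with Xin repeats, had log2 fold changes of 0.41 and 0.38 (adjusted p of 0.00027 and 0.00059, limma), and Fhod3, a cardiac formin, and Sorbs2, an adaptor of the Z-disc, had -0.21 and -0.43 (adjusted p of 0.0096 and 0.0097, limma).

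Of 16 genes whose proteins bind titin or act on it, 14 had values and 12 were tested, and Capn3 and Trim54 were not analysed here. None was called by limma, where 8.0% of all tested genes were called higher and 2.92% lower. An unadjusted p under 0.05 was found for 3, without a share of all tested genes to set beside it. With voom weights 0 were called, and the median log2 fold change was -0.03. The most abundant was Rbm20, the splicing factor that sets which titin exons are included, with 1739, 1633 and 1488 normalized counts with LNA Control against 1514, 1470 and 1511 with LNA Malat1. Its groups overlapped, and the log2 fold change was -0.11 (adjusted p = 0.20, limma). Where 14.3% of all tested genes were past the adjusted p and higher, 1 of the 12 was, named after its values were seen. This was Ankrd1, a stretch-responsive ankyrin repeat protein of the titin spring region, with a log2 fold change of 0.53 (adjusted p = 5.3e-05, limma).

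**Figure D5:**
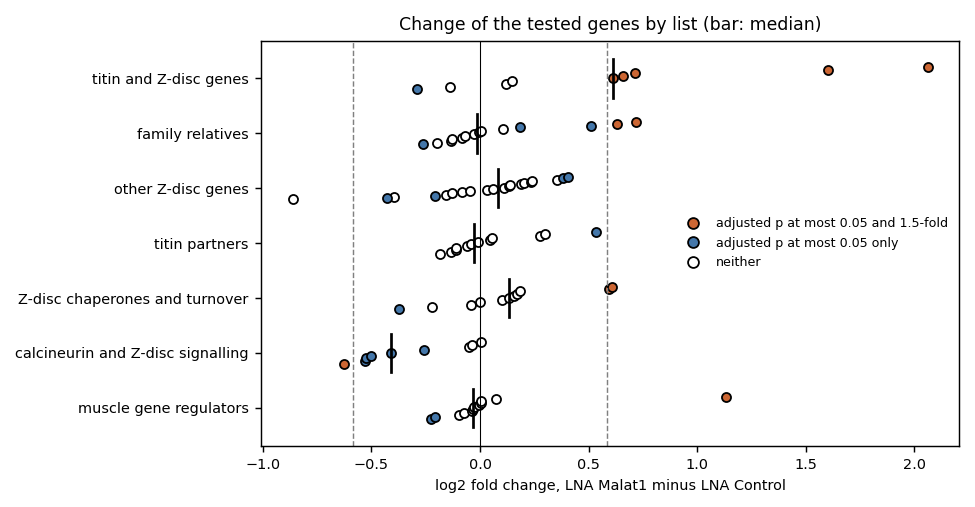
Log2 fold changes of LNA Malat1 over LNA Control for the tested genes of 7 lists, each point a gene and each vertical bar the median of its list, with dashed lines at a 1.5-fold change. The median is 0.61 for titin and the Z-disc genes, lies between -0.03 and 0.13 for 5 of the other lists and is -0.41 for calcineurin and Z-disc signalling.

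Markers of other cells were read beside these changes. The 3 skeletal muscle markers with values, of 9 listed, summed to only 35 to 39 normalized counts in LNA Control and to 87 to 95 in LNA Malat1. At these low levels 2 of them, Ckm and Tnnt3, were called higher, where 8.0% of all tested genes were. Among low genes this share was larger, with 16.1% at means of 5 to below 10 and 19.6% at means of 20 to below 50. The 5 fibroblast markers with values, of 8 listed, summed to 5304 to 5911 in LNA Control and to 4683 to 4817 in LNA Malat1. Where 14.0% of all tested genes were past the adjusted p and lower, 1 of the 4 tested was. This was Col3a1, with 2549, 2650 and 2376 normalized counts with LNA Control against 2060, 2023 and 1952 with LNA Malat1 (log2 fold change -0.33, adjusted p = 0.0014, limma). Col1a1 and Postn had at least 1794 and 800 normalized counts in every library, and Col1a2 had 0 or 1. The 5 smooth muscle markers summed to 1778 to 1977 and 1919 to 2044, and 2 of them were past the adjusted p and higher, where 14.3% of all tested genes were. These were Cnn1 (log2 fold change 0.40, adjusted p = 0.0035, limma) and Smtn (log2 fold change 0.33, adjusted p = 0.0044, limma). Only 3 of the 5 smooth muscle markers had a positive log2 fold change. In 3 of the 5 every LNA Malat1 library was above every LNA Control library, and in 1 every one was below. Of all tested genes these shares were 20.5% and 20.8%. The part of these markers in the changes of the Z-disc genes was not tested.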

How the data were processed

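RNA-seq libraries of HL-1 cells (3 LNA Control, 3 LNA Malat1) were grouped by the titles given by the submitters. Per the labels and the methods of the study, the authors trimmed reads with Trimmomatic 0.39, aligned them to mm10 with STAR 2.7.7a and the Ensembl annotation, counted them per gene with featureCounts 1.6.5 and used DESeq2 1.30.0. The deposited values are a score, since the authors scaled the counts by 1 factor per library and rounded them to whole numbers, so a count model was not the test. Reads per library were recovered from the gaps and repeats that the rounding leaves. Chi-square values between replicates cover counting error only, and depth limits the precision for Csrp3, Tcap and Myoz2.

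Genes with a mean of at least 5 were fitted as log2(normalized count + 1) with limma 3.58.1 (R 4.3.3, lmFit and eBayes with trend, two-sided), with Benjamini-Hochberg adjustment over all 15650 tested genes and intervals of 95%. A fold change on this scale understates the change of low genes. The script was tested on simulated data. Summaries used Python 3.11.15. All 10 genes were named, as were all family relatives, each gene called in a list or otherwise the most abundant one, and the 5 genes nearest to Ttn and to Actn2 in pattern among those with a mean of at least 100. The values of 2 genes that this rule names are not reported here. The genes and lists were chosen with earlier results of these data known. Positions were the same in GENCODE M21. Alternatives were other pseudocounts, filters, scalings, fold minimums, voom weights, a replicate block and leaving out each library.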

Additional observations from a re-analysis of the deposited data

How the results depend on the processing

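The count of 5 upregulated genes among the 9 tested was 3 with a mean of at least 50, a filter that left 6 of them to test, 1 with limma's treat test against a 1.5-fold change (Synpo2l) and 2 with a fold change of at least 2 (Csrp3 and Synpo2l). Over all genes, treat called 192 higher and 99 lower of 15650, and the filter at 50 left 10490 genes. The share of all genes called with a fold change of at least 2 is not given here. Leaving out 1 library at a time gave 3 to 5, with 3 without LNA Control replicate 2, where Actn2 and Ldb3 fell under 1.5-fold. The count of relatives called was 2, and it was 0 with treat, 0 with a fold change of at least 2 and 5 with no fold minimum. It ran from 1 without LNA Malat1 replicate 1, where Synm was lost, to 3 without LNA Control replicate 3, where Neb was added. The count of other Z-disc genes called was 0, and it was 4 with no fold minimum, 1 with quantile normalization (Pdlim2, lower) and 0 to 1 over the libraries left out, with 1 (Pdlim2, lower) without LNA Malat1 replicate 3. Quantile normalization set Ttn to a log2 fold change of 0.00, since a gene of rank 1 in every library gets the same value in each by construction. It also turned Myoz2 to -0.21 and moved the split over all genes from 1252 higher and 457 lower to 748 and 718. That split was 317 and 349 with a mean of at least 50, 831 and 428 where replicates 1 and 3 of LNA Malat1 were averaged, 769 and 410 without LNA Malat1 replicate 1 and 796 and 457 without LNA Malat1 replicate 3. Myoz2 ran from -0.0094 to 0.35 over the libraries left out, turning without LNA Control replicate 1. All other log2 fold changes of the 9 genes kept their direction in every setting. Depth limits what can be said of Csrp3, Myoz2 and Tcap.

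Whether replicate numbers pair the samples was not tested. Deviations from the group means of libraries with the same number had correlations of 0.086, 0.18 and 0.083 over 10490 genes, and each library correlated best with its own number. A replicate block changed the standard error from 0.118 to 0.090 for Ttn, from 0.124 to 0.086 for Actn2, from 0.218 to 0.224 for Synpo2l and from 0.070 to 0.072 for Des. With the replicate block, the counts were 5, 0 and 2, as without it, and 1297 higher and 442 lower over all genes.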

Other observations

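Calcineurin is a calcium-dependent phosphatase that calsarcins tether to the Z-disc, and protein kinase C isoforms dock there as well. Of 10 listed genes of calcineurin and Z-disc signalling, 9 were tested, with a median log2 fold change of -0.41. Ppp3cc, a catalytic subunit of calcineurin, was called lower, with 33, 34 and 38 normalized counts with LNA Control against 24, 21 and 22 with LNA Malat1. Its log2 fold change was -0.63 (adjusted p = 0.025, limma), and the call was lost with a pseudocount of 5 and without LNA Control replicate 2, LNA Control replicate 3 or any 1 of the LNA Malat1 libraries. Past the adjusted p alone, 6 of the 9 were lower and 0 were higher, where 14.0% of all tested genes were lower. Named after their values were seen, these included Ppp3ca, another catalytic subunit. It had 664, 644 and 658 normalized counts with LNA Control against 472, 496 and 514 with LNA Malat1, a log2 fold change of -0.41 (adjusted p = 0.00012, limma). Rcan1, a calcineurin target gene and regulator, had 426, 433 and 402 and then 291, 290 and 291, and the kinases Prkca and Prkce had log2 fold changes of -0.52 and -0.50. The most abundant, Nfatc3, had -0.05 (adjusted p = 0.56, limma). The catalytic subunit gene Ppp3cb, more abundant than Ppp3ca with 1071, 1074 and 1054 normalized counts in LNA Control, had -0.04 (adjusted p = 0.59, limma). Ppp3r1, a regulatory subunit, had 0.01 (adjusted p = 0.95, limma).

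Of 12 genes for Z-disc chaperones and protein turnover, 11 were tested and 2 were called higher, both for subunits of ubiquitin ligases, where 8.0% of all tested genes were called higher. In the range of means from 20 to below 50, in which Fbxl22 lay, 19.6% were. Fbxo32, or atrogin-1, had 66, 72 and 87 normalized counts with LNA Control against 111, 108 and 124 with LNA Malat1, and Fbxl22, whose product acts on alpha-actinin and filamin C, had 39, 37 and 37 and then 52, 55 and 66. Their log2 fold changes were 0.61 and 0.59 (adjusted p of 0.0026 and 0.011, limma), close to 1.5-fold. Hspb7, a small heat shock protein of the heart named after its values were seen, was past the adjusted p in the other direction, with 222, 213 and 218 normalized counts with LNA Control against 171, 163 and 169 with LNA Malat1 (log2 fold change -0.37, adjusted p = 0.0014, limma). Both calls of ubiquitin ligase genes were lost with a pseudocount of 5, with quantile normalization and without LNA Control replicate 2 or LNA Malat1 replicate 3, that of Fbxo32 also without LNA Control replicate 1, and that of Fbxl22 also with median-of-ratios scaling, with LNA Malat1 replicates 1 and 3 as 1 sample and without LNA Control replicate 3. Of 12 muscle gene regulators, all tested, 1 was called higher, Mef2b, which is near the 8.0% of all tested genes that were. Mef2b had 9, 7 and 4 normalized counts with LNA Control against 14, 19 and 13 with LNA Malat1, a log2 fold change of 1.13 (adjusted p = 0.027, limma). Its call was lost with quantile normalization, with LNA Malat1 replicates 1 and 3 as 1 sample and without any 1 library other than LNA Control replicate 1. Gata4 and Tbx5, cardiac transcription factors named after their values were seen, were past the adjusted p and lower, as were 14.0% of all tested genes. Their log2 fold changes were -0.21 and -0.22 (adjusted p of 0.0079 and 0.045, limma), and their groups did not overlap. Mef2a, Mef2c, Mef2d, Srf and Myocd, whose factors bind the MEF2 site or the CArG box or act with them, had log2 fold changes between -0.10 and 0.07, and none of them passed the adjusted p.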
